A study of Mus musculus with 6 samples.

Results

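The growth hormone and prolactin receptor axis was followed here through 10 genes in mouse liver: the receptors Ghr and Prlr, the transcription factors Stat5a and Stat5b, the secreted products Igf1, Igfals and Igfbp1, the feedback inhibitors Socs2 and Cish, and the repressor Bcl6. The genes were chosen by name for their place in the pathway, and the set was drawn up because Prlr had been seen higher with lycorine in these same libraries. The difference of Prlr between the groups is therefore given as a description, with no test. All 10 genes were found in the deposited table of 58601 rows, and all 10 were among the 13854 rows whose mean over the libraries was at least 1 TPM, which were the rows tested. TPM is a gene's share of all transcripts, corrected for their length and scaled to a fixed sum per library.

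The study asked how lycorine, an alkaloid of Amaryllidaceae plants, acts on cholestasis inside the liver. Mice labelled as knockouts of Mdr2, the canalicular phospholipid transporter encoded by Abcb4, were 8 weeks old at the start and received vehicle or lycorine for 2 weeks. The liver RNA of each group was sequenced in 3 libraries, so that all 6 libraries carry the same genotype label, written as Mdr2-/- and Mdr2 knockout in the sample labels and as Mdr2-HKO in the growth protocol. Dose, route and sex are not given in the labels, which also do not say that each library came from a separate mouse, so p-values here measure the spread between libraries, which may be technical.

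Growth hormone and prolactin bind related single-pass receptors that carry the kinase JAK2. In hepatocytes the activated kinase phosphorylates STAT5, which enters the nucleus and switches on Igf1, Igfals and the feedback inhibitors Socs2 and Cish. The pulsatile growth hormone of males and the more continuous hormone of females set many sex differences of the mouse liver through this route, and Prlr is itself known for higher expression in female than in male mouse liver.

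Among the 10 genes, Prlr showed the widest separation between the groups: its level was 3.65 times higher in the lycorine mean than in the vehicle mean. Ghr, Igf1 and Igfals were also higher in every lycorine library than in any vehicle library, by smaller amounts, while Bcl6 was lower in the mean. Stat5a, Stat5b, Socs2, Cish and Igfbp1 overlapped between the groups. None of the 9 genes other than Prlr passed an adjusted p of 0.05 (limma, Benjamini-Hochberg over all tested rows), and the share of rows called over the whole table was 0.0%. At an unadjusted p under 0.05, limma counted 476 rows, 3.44% of those tested, of which 386 (2.79%) were higher and 90 (0.65%) lower with lycorine. Ghr was the 1 gene of the 9 among them. Its unadjusted p was not under 0.05 after median-of-ratios, hepatocyte marker or quantile scaling, without a variance trend, or with protein-coding nuclear genes only. Nor was it without vehicle 1, without any 1 of the lycorine libraries, or without both vehicle 3 and lycorine 3. Cish and Bcl6 had an unadjusted p under 0.05 with array quality weights, without lycorine 3, and without both vehicle 3 and lycorine 3. Bcl6 also had one with protein-coding nuclear genes only and without vehicle 3, and Igfals had one with no filter. Most rows of the table were higher with lycorine: the median log2 fold change over all tested rows was 0.22, and 69.9% of rows lay above 0.

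**Figure D1:**
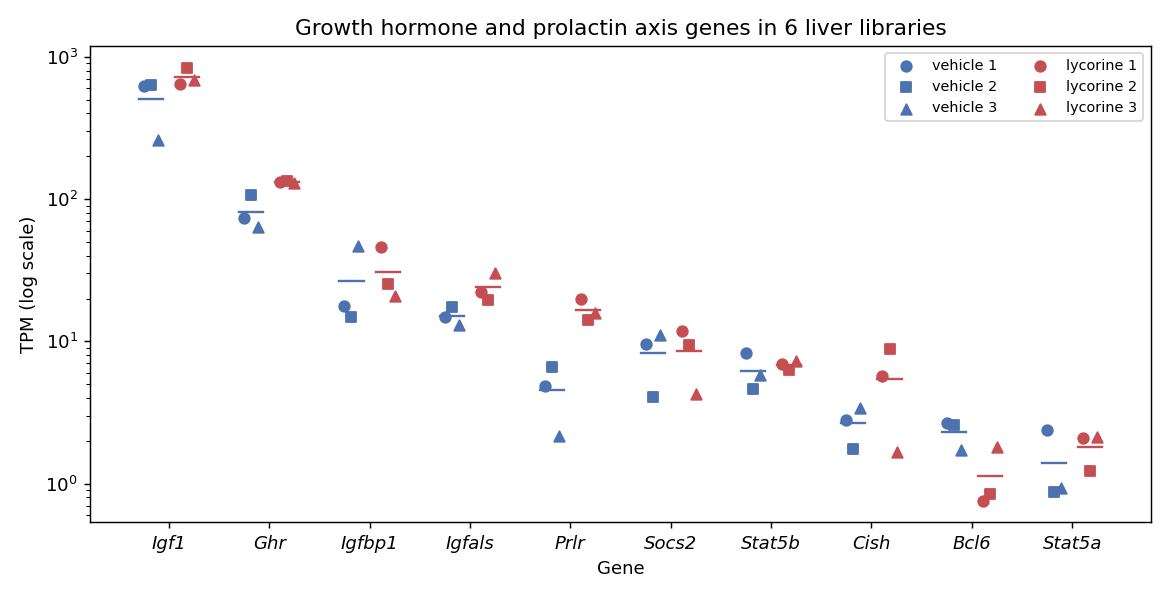
TPM (log scale) of each of the 10 genes in the 3 vehicle libraries (blue) and the 3 lycorine libraries (red), with bars at the group means and genes ordered by mean level. Igf1 lies highest, between 258.7 and 840.2 TPM, and for Prlr the red points (14.2 to 19.7 TPM) all lie above the blue ones (2.17 to 6.60 TPM).

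The libraries were not alike in general composition, and vehicle 3 stood apart. Protein-coding nuclear genes took 51.5% of the TPM in vehicle 3 and between 63.7% and 78.1% in the other 5 libraries, and 10.8% of vehicle 3 lay in rows that are not in the GENCODE M21 annotation. Mitochondrial genes took 12.9%, 19.7% and 20.1% of the TPM in vehicle libraries 1, 2 and 3, and 9.48%, 10.8% and 13.2% in lycorine libraries 1, 2 and 3, so that vehicle 2 was nearly as high as vehicle 3. The summed level of 7 hepatocyte markers (Alb, Ttr, Apoa1, Serpina1c, Fgb, Ahsg and Hp) was 21878 TPM in vehicle 3, against 40669 to 58184 TPM in the others. The Kupffer cell and macrophage markers summed to 258.3 to 645.6 TPM with vehicle and 163.6 to 454.8 TPM with lycorine, and 11 of the 11 tested had a log2 fold change below 0. In 5 of them (Clec4f, Vsig4, Cd5l, Timd4 and Fcna, markers of resident Kupffer cells) every lycorine library was below every vehicle library, as in 1.01% of all tested rows. The sinusoidal endothelial markers summed to 91.5 to 231.4 TPM and 106.9 to 151.2 TPM, with 9 of 9 below 0, and no marker of these 3 lists was at 0 in every library. The 6 neutrophil markers summed to 5.09 to 25.8 TPM with vehicle and 1.39 to 3.39 TPM with lycorine, which did not overlap; 2 were tested, both below 0, and Ly6g was at 0 in every library. In bulk liver, fewer cells of a type and less RNA per cell cannot be told apart, and the part of cell composition in the differences below was not tested. Abcb4, the gene behind Mdr2, was listed at 43.5, 10.8 and 12.3 TPM in vehicle libraries 1, 2 and 3, and 8.96, 8.32 and 32.2 TPM in lycorine libraries 1, 2 and 3. Its transcripts were thus above 0 in every library labelled as a knockout, and vehicle 1 and lycorine 3 were the highest. No library of another genotype was analysed here, and the labels do not say which part of the gene was removed, so the genotype is given only as labelled.

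Prlr encodes the prolactin receptor, which in rodent liver is present as a long signalling form and several short forms. The gene lies on the plus strand at chr15:10177238-10349180 (GRCm38) and is annotated with 12 transcripts, 7 of them protein-coding. The deposited table holds 1 value per gene and library, so the receptor forms cannot be separated. Its level was 4.84, 6.60 and 2.17 TPM in vehicle libraries 1, 2 and 3, and 19.7, 14.2 and 15.8 TPM in lycorine libraries 1, 2 and 3. The groups did not overlap, with vehicle 3 lowest and lycorine 1 highest. The means were 4.54 ± 2.23 TPM with vehicle and 16.6 ± 2.82 TPM with lycorine (SD, n = 3 each). On the log2(TPM + 1) scale the fold change was 1.75 (SE 0.38). This placed Prlr at rank 70 of the 13854 tested rows, so 0.498% of rows had a larger fold change, and at rank 11 of the 6215 protein-coding genes with a mean of at least 5 TPM. Across the other ways of processing the values and with each library left out in turn, the fold change of Prlr ranged from 1.12 to 2.02.

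The lowest of those values comes from a neighbour that shares exons with Prlr. Gm21973, on the same strand at chr15:10325380-10373749, is annotated with 5 exons and 358 exonic bases, of which 203 bases in 3 exons belong to Prlr and 155 bases in 2 exons to Agxt2, the next gene along. Reads in those bases can be assigned to either gene. Gm21973 was listed at 7.89, 11.6 and 1.23 TPM with vehicle and at 6.20, 4.69 and 5.58 TPM with lycorine. Vehicle 1 and vehicle 2 thus had more Gm21973 than Prlr, whereas every lycorine library had less. When the values of both genes were added, the sums were 12.7, 18.2 and 3.40 TPM with vehicle and 25.9, 18.9 and 21.4 TPM with lycorine. The groups then differed by a log2 fold change of 1.12 (means 11.4 ± 7.48 and 22.1 ± 3.55 TPM, SD, n = 3 each) and were separated only narrowly, by 18.2 against 18.9 TPM. TPM is per length and Gm21973 is short, so the sum is not the TPM of 1 merged gene. Part of the Gm21973 reads may also belong to Agxt2, which was listed at 37.4 to 79.6 TPM.

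RefSeq gives 3 start sites for Prlr, and the 250 bases before the second hold the letters TTCNNNGAA, the core of the sequence that STAT5 dimers recognise. The window is shown with the match in capitals, 5′ to 3′ on the gene's strand, together with the windows before both start sites of Bcl6, the other gene whose groups were apart after both scalings between libraries described further on. The first base of the match lies 110 bases before the start in the Prlr window. In the Bcl6 windows the matches begin 118 bases before the first start and 168, 122 and 88 bases before the second. The bases just after the second starts of Prlr and Bcl6 were not found in any GENCODE M21 transcript of the gene. Those after the first start of Bcl6 and the other starts of Prlr were found.

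Prlr, second start, chr15:10223656-10223905, plus strand: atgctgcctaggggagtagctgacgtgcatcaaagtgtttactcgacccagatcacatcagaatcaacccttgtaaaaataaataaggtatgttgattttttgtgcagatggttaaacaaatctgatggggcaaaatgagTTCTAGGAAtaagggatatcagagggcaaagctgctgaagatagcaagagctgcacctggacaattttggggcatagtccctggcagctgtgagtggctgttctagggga
Bcl6, first start, chr16:23988853-23989102, minus strand: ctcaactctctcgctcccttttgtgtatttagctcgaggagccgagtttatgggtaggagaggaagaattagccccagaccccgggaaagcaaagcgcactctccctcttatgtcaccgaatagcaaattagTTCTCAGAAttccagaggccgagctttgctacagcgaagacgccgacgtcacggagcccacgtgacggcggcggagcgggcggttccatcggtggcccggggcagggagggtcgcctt
Bcl6, second start, chr16:23981284-23981533, minus strand: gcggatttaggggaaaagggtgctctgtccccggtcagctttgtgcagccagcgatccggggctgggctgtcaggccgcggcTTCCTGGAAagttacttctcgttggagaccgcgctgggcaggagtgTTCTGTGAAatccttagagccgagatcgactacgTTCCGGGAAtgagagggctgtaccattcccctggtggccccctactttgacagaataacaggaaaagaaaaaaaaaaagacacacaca

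The sequences are from RefSeq (GRCm38.p6), which held windows for 9 of the 10 genes, 17 in all. TTCNNNGAA, which reads the same on both strands, was found in 5 windows of 3 genes: the 3 shown and those before the first and second starts of Igfals, where the matches TTCTCAGAA and TTCCTAGAA begin 236 and 58 bases before the start. The same letters occur in 2306 of 32851 windows of 250 bases over the genome's genes, or 7.02%. CAAAACA, the core of the insulin response element, or its reverse TGTTTTG, occurs in 5.56% of those windows and in 1 of the 17, 108 bases before the start of Igfbp1. A match describes the letters and does not show that a factor binds there.

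Ghr encodes the growth hormone receptor, one of the more abundant cytokine receptors of hepatocytes, and lies on the minus strand at chr15:3317760-3583492. Its level was 73.3, 106.1 and 63.9 TPM in vehicle libraries 1, 2 and 3, and 130.95, 134.2 and 129.3 TPM in lycorine libraries 1, 2 and 3. All lycorine libraries lay above all vehicle libraries, and they lay close together, with a coefficient of variation of 1.89% against 27.3% with vehicle. The means were 81.1 ± 22.1 and 131.5 ± 2.49 TPM (SD, n = 3 each). The log2 fold change was 0.72 (SE 0.29, 95% confidence interval 0.04 to 1.41), with an unadjusted p of 0.0408 and an adjusted p of 0.832 in limma. Of all tested rows, 9.6% had every lycorine library above every vehicle library, and 3 of the 9 genes other than Prlr did: Ghr, Igf1 and Igfals.

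As listed, the 2 receptors did not shift by the same amount. The Prlr level was 0.066, 0.0622 and 0.034 of the Ghr level in vehicle libraries 1, 2 and 3, and 0.151, 0.106 and 0.122 of it in the lycorine libraries. This ratio, which does not depend on the scaling between libraries, was higher in every lycorine library, by 1.27 on the log2 scale. It is a description, since Prlr was chosen for its difference. The ratio also depends on how reads were divided between Prlr and Gm21973. With the values of both genes added, it overlapped between the groups. Vehicle 1 (12.7 TPM beside 73.3 TPM of Ghr) and vehicle 2 (18.2 TPM beside 106.1 TPM) then both lay above lycorine 2 and lycorine 3. Lycorine 2 had 18.9 TPM beside 134.2 TPM of Ghr, and lycorine 3 had 21.4 TPM beside 129.3 TPM. Only vehicle 3 lay below every lycorine library. Ghr remained the more abundant receptor message in all 6 libraries.

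STAT5B is the main growth hormone mediator in liver, and STAT5A is its close paralogue. The genes lie 8626 bases apart on chromosome 11, Stat5b at chr11:100780731-100850724 on the minus strand and Stat5a at chr11:100859351-100885169 on the plus strand. Stat5b was at 8.26, 4.65 and 5.76 TPM with vehicle and 6.93, 6.31 and 7.23 TPM with lycorine. The lycorine values lay inside the vehicle range. The means were 6.22 ± 1.85 and 6.82 ± 0.469 TPM (SD, n = 3 each), and the log2 fold change was 0.14 (SE 0.29, 95% confidence interval -0.54 to 0.83, limma adjusted p = 0.917). Stat5a was lower per length, at 2.39, 0.87 and 0.93 TPM with vehicle and 2.09, 1.23 and 2.14 TPM with lycorine. Vehicle 1 was its highest library and the groups overlapped, with a log2 fold change of 0.27 (limma adjusted p = 0.882, SE 0.42). The paralogues share sequence: 10.98% of the 50-base stretches of Stat5b transcripts and 8.21% of those of Stat5a occur in the other gene, so part of their reads can be split between them. Stat5b exceeded Stat5a 4.998 ± 1.40 times with vehicle and 3.94 ± 1.03 times with lycorine (SD, n = 3 each), a difference that did not pass the test (exact permutation test, two-sided p = 0.2, adjusted over 5 ratios 0.333). With 3 libraries against 3 that test cannot go below 0.1.

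Igf1 encodes insulin-like growth factor 1, which the liver supplies to the blood under growth hormone control. It was the most abundant of the 10 messages per length, above Ghr and Igfbp1 in 6 of 6 libraries, and lies at chr10:87858265-87937042 on the plus strand. Its level was 621.7, 630.3 and 258.7 TPM in vehicle libraries 1, 2 and 3, and 647.6, 840.2 and 688.4 TPM in lycorine libraries 1, 2 and 3. Vehicle 3 was far below the others, and vehicle 1 and vehicle 2 lay just under the lowest lycorine library. The means were 503.6 ± 212.1 and 725.4 ± 101.5 TPM (SD, n = 3 each), with a log2 fold change of 0.63 (SE 0.40, 95% confidence interval -0.30 to 1.56, limma adjusted p = 0.832). Without vehicle 3, the library with the lowest hepatocyte marker level, the log2 fold change was 0.20.

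Igfals encodes the acid-labile subunit, a hepatocyte protein that holds insulin-like growth factor 1 in a long-lived complex in the blood (chr17:24865997-24882010, plus strand). It was at 14.8, 17.4 and 13.0 TPM with vehicle and 22.2, 19.5 and 30.02 TPM with lycorine. Lycorine 3 was highest and the groups did not overlap. The means were 15.1 ± 2.22 and 23.9 ± 5.45 TPM (SD, n = 3 each), and the log2 fold change was 0.62 (limma adjusted p = 0.832, SE 0.29). The ratio of Igfals to Igf1 overlapped between the groups, with a log2 difference of 0.02 (exact permutation test, p = 1, adjusted 1), and its direction turned with the library left out.

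Igfbp1 encodes a binding protein for insulin-like growth factors that insulin represses and fasting and liver injury raise (chr11:7197782-7202546, plus strand). Its level was 17.7, 14.7 and 47.1 TPM with vehicle and 46.2, 25.2 and 20.7 TPM with lycorine. Vehicle 3 and lycorine 1 were both high, and the groups overlapped. The log2 fold change was 0.31 (limma adjusted p = 0.891, SE 0.51). In vehicle 3, high Igfbp1 stood beside the lowest Igf1, and the ratio of Igfbp1 to Igf1 was 0.182 there against 0.0234 to 0.0713 in the other libraries. Its log2 difference between groups was -0.30 (exact permutation test, p = 1, adjusted 1) and 0.64 without vehicle 3.

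Socs2 and Cish encode suppressors of cytokine signalling that STAT5 induces and that damp the receptors in turn. Socs2 (chr10:95385362-95417180, minus strand) was at 9.66, 4.04 and 11.01 TPM with vehicle and 11.9, 9.44 and 4.30 TPM with lycorine. The groups covered nearly the same range, with means of 8.24 ± 3.70 and 8.55 ± 3.89 TPM (SD, n = 3 each) and a log2 fold change of 0.05 (SE 0.47, 95% confidence interval -1.06 to 1.16, limma adjusted p = 0.982). Cish (chr9:107296026-107302784, plus strand) was at 2.79, 1.75 and 3.41 TPM with vehicle and 5.74, 8.83 and 1.68 TPM with lycorine. Lycorine 1 and lycorine 2 were above every vehicle library, but lycorine 3 was the lowest of the 6. The log2 fold change of Cish was 0.65 (limma adjusted p = 0.832, SE 0.51). Vehicle 2 and lycorine 3 were the lowest libraries of both genes. Of the 50-base stretches of Cish transcripts, 5.89% also occur in Gm17041, an antisense gene that was listed at 0. Cish reached 0.344 ± 0.078 of Socs2 with vehicle and 0.603 ± 0.292 with lycorine (SD, n = 3 each), and these ratios overlapped (exact permutation test, p = 0.2, adjusted 0.333).

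Bcl6 encodes a transcriptional repressor whose sites overlap those of STAT5 in mouse liver and that is higher in males (chr16:23965052-23988852, minus strand). It was the 1 gene of the set with a lower mean in lycorine, at 2.65, 2.57 and 1.71 TPM in vehicle libraries 1, 2 and 3, and 0.76, 0.84 and 1.81 TPM in lycorine libraries 1, 2 and 3. The groups overlapped only through vehicle 3 and lycorine 3; of all tested rows, 1.01% had every lycorine library below every vehicle library. The means were 2.31 ± 0.521 and 1.14 ± 0.584 TPM (SD, n = 3 each), and the log2 fold change was -0.65 (SE 0.39, 95% confidence interval -1.56 to 0.25, limma adjusted p = 0.832). It ranged from -1.04 with a pseudocount of 0.1 to -0.53 without lycorine 1. The ratio of Bcl6 to Stat5b was 0.321, 0.553 and 0.297 with vehicle and 0.1097, 0.133 and 0.250 with lycorine. That ratio did not overlap between the groups, with a log2 difference of -1.28, at the smallest p that 3 against 3 allows (exact permutation test, p = 0.1, adjusted over 5 ratios 0.333). With a pseudocount of 1 added to both levels, the log2 difference was -0.80.

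**Figure D2:**
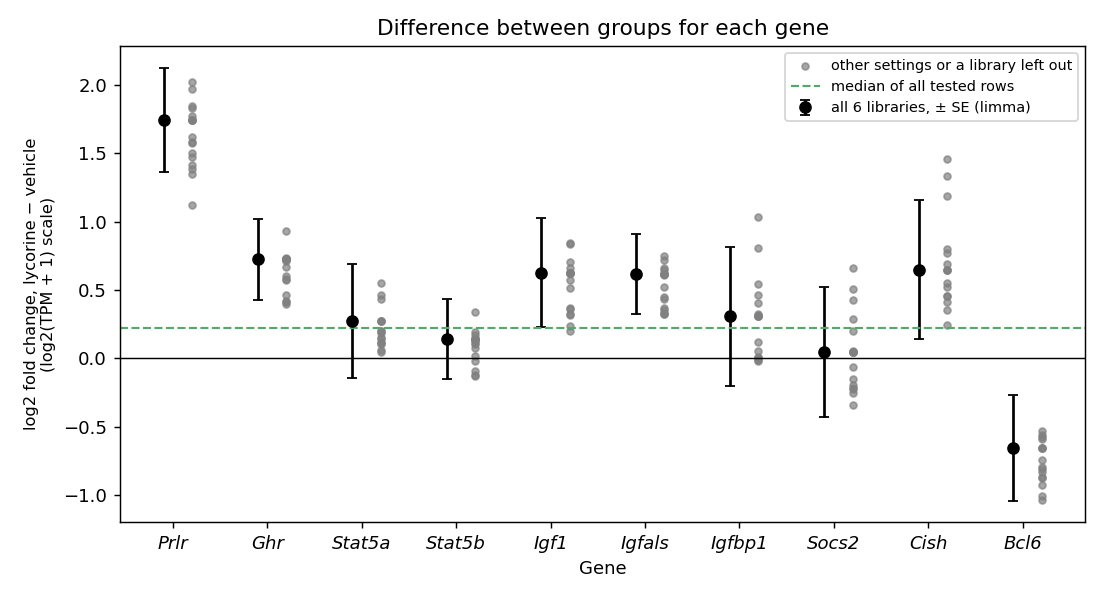
Log2 fold change of lycorine against vehicle on the log2(TPM + 1) scale for each gene (black, ± SE from limma over all 6 libraries) beside the values under other settings or with libraries left out (grey); the dashed line is the median of all tested rows, 0.22. Prlr lies highest at 1.75 and Bcl6 lowest at -0.65, and the grey points of Stat5b, Igfbp1 and Socs2 fall on both sides of 0.

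The levels of the 10 genes formed an order in which only some neighbours were distinct. By mean TPM over the 6 libraries it ran Igf1, Ghr, Igfbp1, Igfals, Prlr, Socs2, Stat5b, Cish, Bcl6 and Stat5a. Igf1, Ghr and Igfbp1 held their order in 6 of 6 libraries, with ranges that did not overlap in either group. Igfbp1 and Igfals overlapped in both groups, as did Socs2 and Stat5b, Cish and Bcl6, and Bcl6 and Stat5a. Igfals exceeded Prlr in 6 of 6 libraries, with ranges that were apart with vehicle but overlapped with lycorine. Prlr overlapped Socs2 with vehicle and lay above it in all lycorine libraries.

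Because most rows had higher values with lycorine, the levels were also divided by a factor per library. One set of factors was the median of each library's ratios to the typical level (geometric mean) of each tested row above 0 in all 6 libraries. The other, chosen after the data had been seen, was the library's hepatocyte marker level, here the geometric mean of the 7 markers and not their sum. The median log2 fold change over all rows was then -0.02 and -0.03. Prlr stayed apart under both, with 4.10, 8.94 and 2.61 against 15.6, 13.4 and 15.3 after the first scaling, and 3.99, 5.55 and 4.30 against 15.7, 11.6 and 17.8 after the second. Its log2 fold change was 1.47 and 1.503. These values leave out Gm21973. The sum of both genes was 18.2 TPM in vehicle 2 and 18.9 TPM in lycorine 2 as deposited. The first scaling divided these by 0.738 and 1.06, and the sums then overlapped between the groups. The second divided them by 1.19 and 1.23, which left these 2 libraries nearly equal. The groups of sums then stayed apart only by that very small margin. Rows with every lycorine library higher made up 3.2% of the table under the first scaling and 3.05% under the second.

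Ghr, Igf1 and Igfals no longer separated the groups after either scaling. Ghr stood at 62.1, 143.7 and 76.8 with vehicle and 103.5, 126.4 and 125.4 with lycorine after the median of ratios, so that vehicle 2 was then the highest library. The log2 fold changes were 0.41 and 0.42 for Ghr, 0.32 and 0.32 for Igf1, and 0.32 and 0.33 for Igfals. Bcl6 went the other way: its groups no longer overlapped, at 2.25, 3.48 and 2.06 against 0.60, 0.79 and 1.75 after the median of ratios, and 2.18, 2.16 and 3.39 against 0.61, 0.68 and 2.04 after the hepatocyte markers. Its log2 fold change was -0.83 and -0.81, and rows with every lycorine library lower made up 3.65% and 1.18% of the table. The other 5 genes overlapped between the groups under both scalings.

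**Figure D3:**
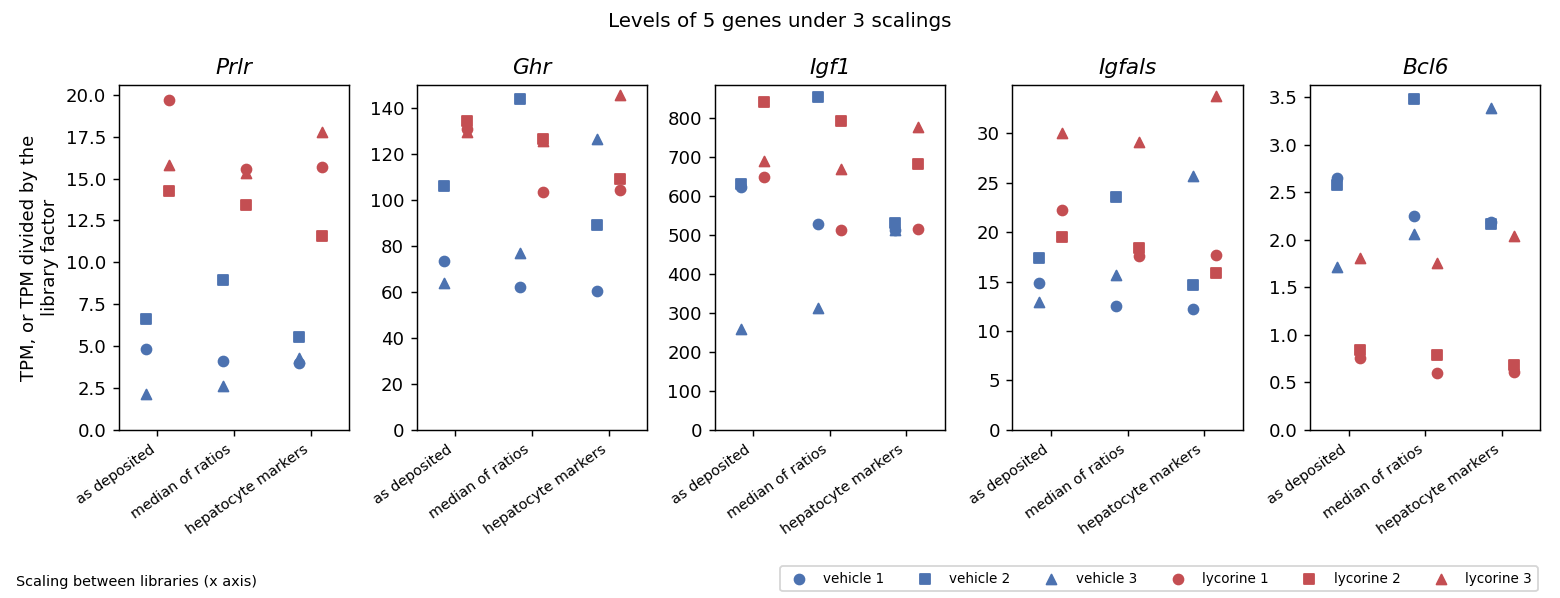
Levels of Prlr, Ghr, Igf1, Igfals and Bcl6 in each library as deposited (TPM) and after division by 2 kinds of library factor (TPM divided by the factor), vehicle in blue and lycorine in red. Prlr, without Gm21973, is apart under all 3 scalings, Ghr, Igf1 and Igfals only as deposited, and Bcl6 only after scaling. The sum of Prlr and Gm21973, which is not drawn, overlapped between the groups after the median of ratios.

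The genes around the axis were described from lists of known pathway members. Of 18 genes of receptor signalling (JAK2, other STATs, SOCS proteins, phosphatases and adaptors), 17 were tested and 0 passed in either direction; 12 had a log2 fold change above 0 and 5 below, with a median of 0.11 against 0.22 for all rows, a difference of -0.11 that was 0.00088 without lycorine 3. Jak2, the kinase that both receptors carry, was at 1.55 ± 0.664 TPM with vehicle and 1.44 ± 0.325 TPM with lycorine (SD, n = 3 each), which gave a log2 fold change of -0.05 (SE 0.39). Socs3, an inhibitor induced mainly by the interleukin 6 family, had a log2 fold change of 0.20 (SE 0.52). The log2 fold changes of the 4 genes with the smallest p-values in the list were 0.32 for the adaptor Shc1, 0.26 for the adaptor Sh2b1, 0.29 for the STAT inhibitor Pias3 and 0.26 for Stat3, and none had groups apart. In this and the following lists, a value in brackets after a gene is its log2 fold change.

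In the insulin-like growth factor system, 10 of 16 genes were tested, 6 lay above 0 and 4 below, and 0 passed. The median was 0.13, at -0.094 from that of all rows, -0.23 without vehicle 2 and 0.077 without vehicle 3. Insr, the insulin receptor, was the 1 gene of the list whose groups did not overlap, 1 of 10 against 10.6% of all tested rows, at 5.01, 4.39 and 4.69 TPM with vehicle and 5.24, 6.05 and 6.52 TPM with lycorine, a log2 fold change of 0.28 (limma adjusted p = 0.832, SE 0.26). Igf1r, the receptor for insulin-like growth factor 1, which hepatocytes express little, had means of 1.55 ± 1.09 and 1.79 ± 0.17 TPM (SD, n = 3 each). The binding proteins Igfbp4 (0.64) and Igfbp3 (-0.30) lay on opposite sides of 0, and Irs2, an adaptor of the insulin receptor, was at 0.40.

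Of 15 transcription factors and nuclear receptors that act with growth hormone on the liver, 11 were tested, 10 lay above 0 and 1 below (69.9% of all tested rows lay above 0), with a median of 0.29 and 0 passing. That median lay 0.067 above the median of all rows, 0.30 above it without lycorine 1, and at -0.27 from it without vehicle 1. Cebpa, a factor of the hepatocyte programme, was higher in every lycorine library, at 48.3 ± 17.8 against 91.95 ± 24.3 TPM (SD, n = 3 each), which gave a log2 fold change of 0.95 (limma adjusted p = 0.832, SE 0.40). The pioneer factors Foxa1 (0.85) and Foxa2 (0.49) and the cofactor Trim24 (0.64) overlapped. Cux2, a factor of female liver, was below the minimum, at 0.05 to 0.11 TPM in 5 libraries and 1.62 TPM in lycorine 3.

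Sex-biased liver genes are the classic readout of the growth hormone pattern. Of 22 male-biased genes, 21 were tested, with 8 above 0 and 13 below, a median of -0.05, and 0 passing. That median lay -0.28 from the median of all rows, and 0.0092 from it without lycorine 1 and 0.015 without vehicle 2. Mup21, a major urinary protein gene, was at 109.0, 389.4 and 181.7 TPM with vehicle and 77.3, 82.9 and 101.2 TPM with lycorine. All its lycorine libraries were lower, and the log2 fold change was -1.18 (limma adjusted p = 0.832, SE 0.47). Mup7 (-1.96), the fatty acid elongase Elovl3 (-0.57), the oxysterol hydroxylase Cyp7b1 (-0.59) and the steroid dehydrogenase Hsd3b5 (-0.36) overlapped between the groups. The complement gene C6 (0.54) was higher in every lycorine library, and Mup20 (0.56) overlapped. Of the 21 genes, 2 were higher in every lycorine library, C6 among them, and 1, Mup21, was lower. The shares over all tested rows were 9.6% and 1.01%. Mup genes are near-identical copies, so the division of reads among them is uncertain.

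Of 29 female-biased genes, 12 were tested, 9 above 0 and 3 below, with a median of 0.50 and 0 passing, while 4 were at 0 in every library. That median lay 0.28 above the median of all rows, and 0.0090 above it without vehicle 1. Cyp2c39, a cytochrome P450 enzyme, was at 20.5, 13.8 and 10.4 TPM with vehicle and 84.7, 56.8 and 69.0 TPM with lycorine. Its lowest lycorine library was far above its highest vehicle library, and the log2 fold change of 2.19 (SE 0.34) had an adjusted p of 0.740 in limma. Its family member Cyp2c38 had a log2 fold change of 1.99 (SE 0.43) and the acyl-CoA thioesterase Acot4 one of 0.48, both with groups apart, whereas Lifr (0.53) overlapped. Of the 12 tested genes, these 3 (Cyp2c39, Cyp2c38 and Acot4) were higher in every lycorine library and 0 were lower. The shares over all tested rows were 9.6% and 1.01%. Cyp2b9, a strongly female-biased P450, was at 0 to 0.13 TPM. Cyp2c genes share sequence, and the authors' reads may be split among them. Ddx3y, on the Y chromosome, was listed at 3.10 to 9.41 TPM in the 6 libraries, and Xist was at 0, 0.71 and 3.08 TPM with vehicle and 0, 0.04 and 0 TPM with lycorine. Of the other Y-linked genes, Eif2s3y (0.49) was higher in every lycorine library and Uty (-0.62) overlapped.

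Of 14 targets and factors of insulin and FOXO signalling, 13 were tested, 8 above 0 and 5 below, with a median of 0.17 and 0 passing. That median lay at -0.050 from the median of all rows, -0.41 without vehicle 1 and -0.27 without lycorine 3. Klf15 (0.71) and G6pc (0.60), a fasting factor and the last enzyme of glucose release, overlapped, and the pseudokinase Trib1 (-0.35) was lower in every lycorine library. Of 13 related cytokine receptors and ligands, 11 were tested, 6 above 0 and 5 below, with a median of 0.08 and 0 passing. That median lay at -0.15 from the median of all rows, and at -0.26 without vehicle 3. Lepr, the leptin receptor, had a log2 fold change of 1.02 (SE 0.68) that rested on lycorine 1 at 4.47 TPM and lycorine 3 at 1.71 TPM, against 0.08 to 0.42 TPM in the other 4 libraries. Osmr (-0.62) and Crlf2 (-0.36) overlapped.

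**Figure D4:**
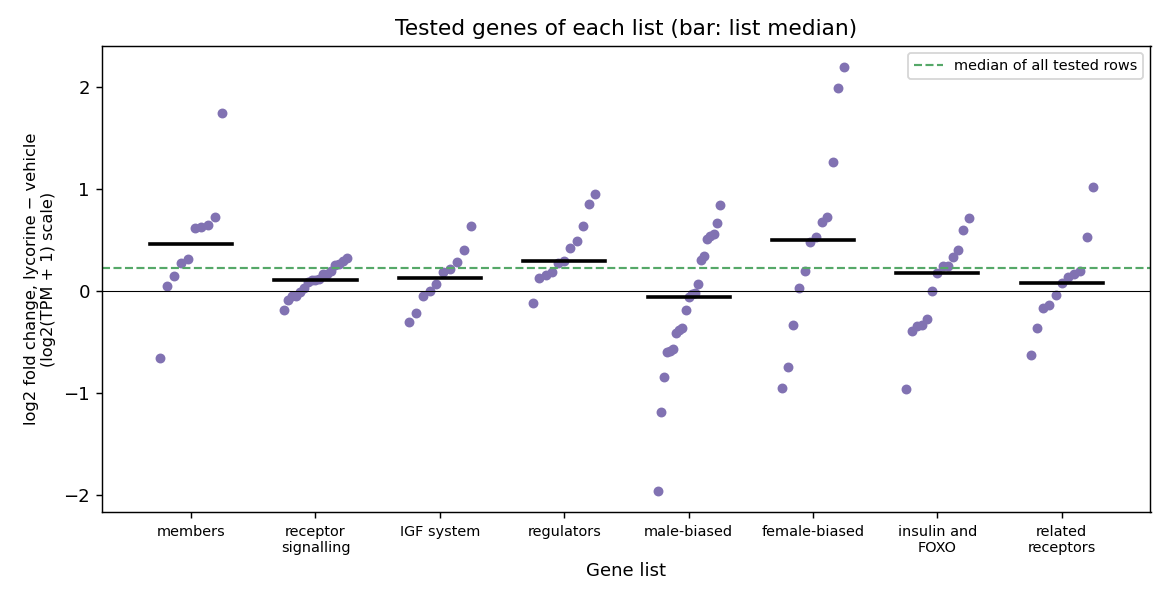
Log2 fold change of lycorine against vehicle (log2(TPM + 1) scale) of each tested gene in the 10-gene set and 7 pathway lists, with a bar at each list's median and a dashed line at the median of all tested rows, 0.22. The medians run from -0.05 for the male-biased genes to 0.50 for the female-biased genes, and no gene of the 7 lists passed an adjusted p of 0.05.

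The genes whose course over the 6 libraries was most like that of Prlr were sought among 6214 other protein-coding genes with a mean of at least 5 TPM. Likeness was the root mean square difference between the log2(TPM + 1) values of a gene and of Prlr, each with its own mean taken away. The closest were the P450 Cyp2c38 (0.244), the steroid dehydrogenase Hsd3b1 (0.268), the hepatocyte-secreted chemotactic protein Lect2 (0.281), the interferon-inducible Ifi27l2b (0.330) and Gulo (0.335), the last enzyme of vitamin C synthesis. Cyp2c38 was at 3.66, 3.02 and 0.79 TPM with vehicle and 16.1, 10.4 and 9.78 TPM with lycorine. All 5 had their lowest value in vehicle 3, as Prlr did, and higher values in every lycorine library. The measure covers 6 libraries of 2 groups, which all of these genes share, and it follows the same difference for which Prlr was chosen.

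**Figure D5:**
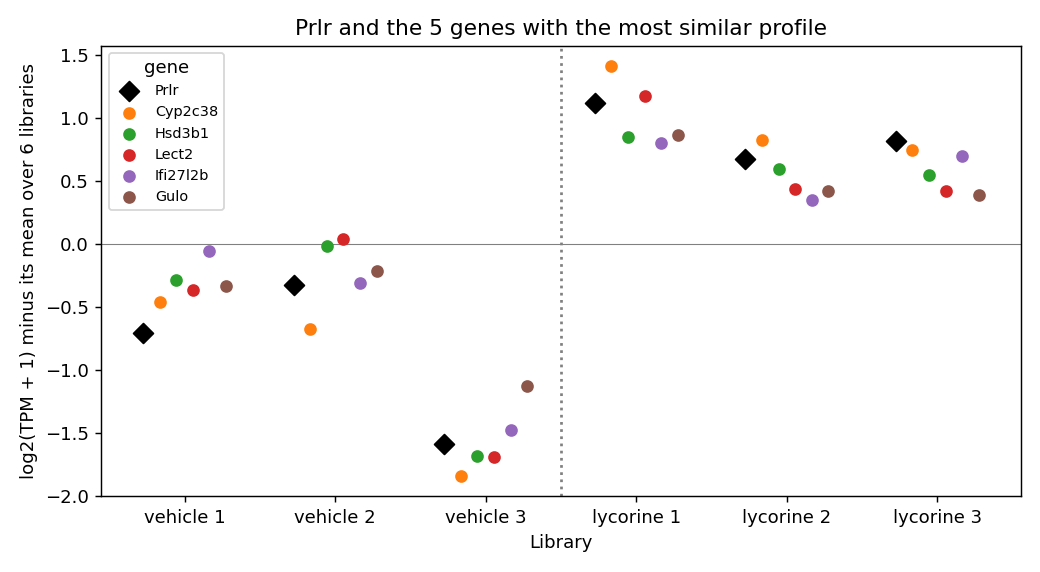
Log2(TPM + 1) minus the gene's mean over the 6 libraries for Prlr (diamonds) and the 5 genes with the most similar course (circles), by library. All 6 genes lie lowest in vehicle 3 and above 0 in the 3 lycorine libraries.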

How the data were processed

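Liver RNA of 3 vehicle and 3 lycorine libraries was read from 1 deposited table. The values are TPM made by the authors: the table is named for FPKM, but each column sums to 1000000. Builds GRCm38 and mm10 are listed per the submitters' processing notes, and neither an aligner nor a quantifier is named (not given in the sources used here). Lycorine columns carry the treatment in their names, and the vehicle columns carry only the genotype and were assigned to the remaining group by their numbers. TPM keeps no depth, so depth is unknown and no counting intervals are given. Symbols and positions came from GENCODE M21.

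Rows averaging 1 TPM or more were tested with limma 3.58.1 (R 4.3.3) on log2(TPM + 1) with a variance trend, two-sided, Benjamini-Hochberg over 13854 rows, threshold 0.05. The script was tested on simulated data. Ratios used exact permutation tests. The members and lists were chosen with earlier results of these data known. Named genes were all members, up to 4 genes per list with the smallest unadjusted p, 11 genes set by name, and the 5 closest to Prlr. A gene that this rule names is not reported here. Alternatives covered pseudocount, filter, scaling, library weights, replicate block and left-out libraries. No library was a copy of another.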

Additional observations from a re-analysis of the deposited data

How the results depend on the processing

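None of the 9 genes other than Prlr passed an adjusted p of 0.05 under any alternative (16 or 17 for each), and the p-values reflect 3 libraries a group of unknown depth. Over all rows, 0 passed as reported, 1 with array quality weights, 1 with pseudocount 0.1, and 0 to 2 when a library was left out (1 without lycorine 2, 2 without vehicle 2). Rows with an unadjusted p under 0.05 numbered 476 as reported and 148 to 1238 over the alternatives: 1135 with array quality weights, 864 with no filter, 315 with a minimum mean of 5, 295 after quantile normalization, 248 with protein-coding nuclear genes only and 148 after hepatocyte marker scaling; they were 254 without lycorine 1, 193 without lycorine 2 and 1238 without vehicle 1. The split of these rows into higher and lower was 386 and 90 as reported, 127 and 193 after median-of-ratios scaling, 137 and 158 after quantile normalization, 86 and 62 after hepatocyte marker scaling, 144 and 104 with protein-coding nuclear genes only, and 252 and 302 without vehicle 2. The same-numbered libraries of the groups deviated together with r = 0.31, 0.05 and 0.29. The first and last of these were higher than the r of any pair with unlike numbers. Vehicle 2, however, correlated better with lycorine 1 (0.21) than with its own number. Whether libraries of the same number share a further factor was not tested. The fit with a replicate block called 0 rows and gave 1033 with an unadjusted p under 0.05. Signs turned for 3 genes, Stat5b, Socs2 and Igfbp1, whose log2 fold changes as reported were 0.14, 0.05 and 0.31. Stat5b was -0.13 after hepatocyte marker scaling, -0.12 after median-of-ratios scaling, -0.089 with protein-coding nuclear genes only and -0.018 without vehicle 2 (-0.018 to 0.34 over left-out libraries). Socs2 was -0.25, -0.22 and -0.20 under those 3 scalings, -0.15 after quantile normalization, -0.22 without lycorine 1, -0.06 without lycorine 2 and -0.34 without vehicle 2 (-0.34 to 0.43). Igfbp1 was -0.0099 after quantile normalization and -0.018 without lycorine 1 (-0.018 to 0.81). The Igfals to Igf1 ratio was -0.0073 with a pseudocount of 1 and ranged from -0.19 to 0.35 with a library left out, and the Igfbp1 to Igf1 ratio from -0.84 to 0.64. The cause of these turns was not tested. Ghr, Igf1, Igfals, Cish, Stat5a and Bcl6 kept their signs, over 0.40 to 0.93, 0.20 to 0.84, 0.32 to 0.75, 0.25 to 1.46, 0.05 to 0.55 and -1.04 to -0.53. Stat5a, Cish and Bcl6 have no value at a minimum mean of 5. Hepatocyte marker scaling and the sum of Prlr and Gm21973 (1.12) were chosen after the data had been seen.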
